A study of Mus musculus with 12 samples.

Results

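Gene expression of SCC7, a squamous cell carcinoma line of the mouse, was compared between medium from tumour-conditioned macrophages and medium from control macrophages. The 6 libraries were taken by their sample titles from the 12 of the series. In the 3 control libraries (M0 CM), wild-type SCC7 cells had been kept for 24 h in medium conditioned by bone marrow-derived macrophages (BMDM), which had themselves been held for 24 h in plain DMEM. In the 3 test libraries (TAM CM, for tumour-associated macrophages), the BMDM had been held for 24 h in 75% SCC7-conditioned medium before their own medium was given to SCC7 cells. The remaining 6 libraries hold SCC7 cells in medium from BMDM treated with interferon-gamma (M1 CM) or interleukin-4 (M2 CM), each at 20 ng/ml. The count table holds 55487 genes, and 14509 were left to test after the low-count filter.

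Several points limit the groups as a model. The BMDM were conditioned by medium from the line that later received their own medium. The sources used here do not give whether the SCC7 medium was removed before collection, so macrophage products and carried-over SCC7 medium cannot be told apart in TAM CM. SCC7 cells kept in SCC7-conditioned medium without macrophages are not among these samples. Nothing in the labels tells whether the 3 replicates per medium were grown as separate cultures. P-values therefore rest on the spread between these samples alone, and that spread may be technical.

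As background, cells that run short of amino acids, or that meet oxidative, heme or endoplasmic reticulum (ER) stress, phosphorylate the translation factor eIF2 alpha. This integrated stress response lowers general translation, favours translation of the transcription factor ATF4, and raises ATF4 targets for amino acid uptake, amino acid synthesis and tRNA charging. ATF4 and its partners of the C/EBP family bind a composite C/EBP-ATF element in many of these promoters. Cholesterol and fatty acid synthesis are in turn set by the SREBP transcription factors, and the oxidant response by NRF2.

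The 6 libraries held 18996937 to 22596630 counts, and mitochondrial genes took 1.64% to 1.81% of them. Libraries of 1 group correlated at a Pearson's r of 0.993 to 0.994 on log2 CPM, a correlation across genes, which are not independent replicates. A chi-square of their counts, divided by its degrees of freedom, was 1.99 to 3.17, so no pair agreed within sampling noise. Variation between replicates beyond counting noise, fitted by edgeR over all 12 libraries, had a coefficient of 3.65%. Whether it is biological or technical is unknown, since separate cultures are not stated. Levels below are CPM on library sizes scaled by TMM (trimmed mean of M values), given as mean ± SD of n = 3 libraries. Log2 fold changes are TAM CM minus M0 CM, given with their standard error (SE). The sources used here do not give the strand setting of the authors' counting, and 82 of the 301 genes chosen for description overlap another tested gene, so their reads could be shared. A gene is said to have risen or fallen where edgeR's quasi-likelihood test gave a Benjamini-Hochberg adjusted p under 0.05 over all tested genes.

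The change in medium moved most of the measured transcriptome. With edgeR's quasi-likelihood test, 5089 were called higher in TAM CM (35.1% of those tested) and 5067 were lower (34.9%), while 4353 were not called. At least 2-fold higher were 1316 genes (9.07%) and at least 2-fold lower 1441 (9.93%). The rises reached further: 204 genes were at least 8-fold higher and 97 at least 8-fold lower. The 3 and 3 libraries did not overlap for 10603 genes (73.1%), and the median log2 fold change of all tested genes was 0.000864. With 70.0% of genes called, a call alone says little of a gene, and the counts of each gene list are to be read against these shares. Since the RNA came from bulk cultures, less RNA per cell and fewer cells of a kind cannot be told apart in any of the values below.

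The largest rises were of genes that were nearly silent in M0 CM. Cox6a2, a muscle-type subunit of cytochrome c oxidase (chr7:128205435-128206387, minus strand of mm10), had no count in the 3 M0 CM libraries and 23.5, 26.5 and 22.6 CPM in TAM CM. Against a floor of 3 counts over the group it was at least 521-fold higher. Gfral, the receptor of the stress hormone GDF15, was at least 148-fold higher. These bounds, like the intervals of count ratios below, cover counting error only. U90926 (chr5:92209893-92215408, minus strand) was at 0.213, 0.0497 and 0.193 CPM in M0 CM and 274, 285 and 260.5 CPM in TAM CM. Car6, a secreted carbonic anhydrase, was at 0.213, 0.199 and 0.0964 CPM in M0 CM and 131, 130.4 and 122 CPM in TAM CM. In both the lowest TAM CM library stood far above the highest M0 CM library, and the M0 CM means rest on 10 and 11 counts in all. Atp2a3, a calcium pump of the ER, gave a count ratio of 584 (exact 95% interval 161 to 4832). Other genes among the largest rises were Fgf21 and Adm2, described below, and Ccdc155 (at least 65.0-fold), Flrt1 (60.7), Dthd1 (55.0) and Ostn (54.6), each with no count in M0 CM. Flrt1 lies across Macrod1 on the other strand, so its reads are uncertain without strand.

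The largest falls were of genes of many kinds. Cdh26, a cadherin (chr2:178430531-178487366, plus strand), was at 85.4, 92.0 and 86.8 CPM in M0 CM and 4.15, 3.03 and 3.87 CPM in TAM CM, a log2 fold change of -4.59 ± 0.08 (edgeR quasi-likelihood adjusted p = 1.12e-41). Angpt1, the ligand of the endothelial receptor Tie2, fell from 7.19 ± 0.467 to 0.290 ± 0.147 CPM (-4.56 ± 0.24). Gprin3, whose product binds G protein alpha subunits, had the largest fall among genes of at least 2 CPM in M0 CM, from 3.38 ± 0.830 to 0.0622 ± 0.0685 CPM (-5.55 ± 0.46). The remaining 9 were at 2.08 to 4.48 CPM in M0 CM and at 0.0672 to 0.238 CPM in TAM CM. They are Ranbp3l, Ankrd35, Galnt15, a glycosyltransferase, Adgra1, an adhesion G protein-coupled receptor, P2rx6, an ATP-gated channel, Sox5, a transcription factor, Syt1, a calcium sensor of synaptic vesicles, Rcan2, an inhibitor of calcineurin, and Adra1d, an adrenergic receptor. Their log2 fold changes ran from -4.85 for Ranbp3l to -4.12 for P2rx6.

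The 44 gene lists held 790 different genes, of which 722 were tested. The integrated stress response list showed the largest shift of the 44 lists described. Of its 19 tested members 17 rose and 2 fell, with a median log2 fold change of 3.33. Libraries of the 2 groups did not overlap for any of them, nor for 73.1% of all tested genes. Like the other lists, it was chosen with earlier results of these data known. Atf4, the transcription factor at the centre of the response (chr15:80255184-80257541, plus strand), was at 408, 418 and 389.5 CPM in M0 CM and 1336, 1306 and 1298 CPM in TAM CM. It rose 3.24-fold, a log2 fold change of 1.70 ± 0.04 (edgeR quasi-likelihood adjusted p = 9.23e-28). Ddit3, which encodes the transcription factor CHOP (chr10:127290774-127296288, plus strand), was at 6.76, 8.35 and 7.42 CPM in M0 CM and 77.1, 75.1 and 73.8 CPM in TAM CM and rose 10.1-fold (3.33 ± 0.10; edgeR adjusted p = 1.68e-17). Every TAM CM library was thus more than 3-fold above every M0 CM library for Atf4 and more than 8-fold for Ddit3. Ddit3 lies across Mars on the other strand. Mars itself rose from 167 ± 2.35 to 202 ± 8.55 CPM, so reads of Mars could add to Ddit3 if the counting ignored strand.

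Most of the targets named here rose further than Atf4 itself. Atf3, a stress-induced repressor of the same family, was at 0.850, 0.796 and 0.771 CPM in M0 CM and 67.0, 66.0 and 67.6 CPM in TAM CM, a rise of 82.2-fold. Chac1, which degrades glutathione, was at 6.59, 6.76 and 6.26 CPM in M0 CM and 524, 506 and 497 CPM in TAM CM, 77.8-fold higher. Trib3, a pseudokinase that restrains ATF4, rose from 16.4 ± 2.02 to 360.0 ± 6.47 CPM. Ppp1r15a, which encodes the eIF2 alpha phosphatase subunit GADD34 and so ends the response, rose from 15.03 ± 0.329 to 344 ± 3.48 CPM. Both feedback inhibitors thus moved with their activator. Nupr1, a small stress-induced nuclear protein, rose from 28.9 ± 0.609 to 339 ± 13.3 CPM, and Sesn2, a leucine sensor that inhibits mTORC1, rose from 47.9 ± 2.29 to 307 ± 9.15 CPM. The 2 eIF2 alpha kinase genes of the list went the other way. Eif2ak3 (PERK) fell from 30.8 ± 1.38 to 21.6 ± 0.720 CPM, and Eif2ak4 (GCN2) fell from 58.6 ± 2.07 to 38.9 ± 1.91 CPM. Those falls are changes in mRNA and say nothing of kinase activity.

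Secreted members of the list were among the largest rises. Fgf21, a starvation hormone (chr7:45613886-45615490, minus strand), was at 0.170, 0.249 and 0.0964 CPM in M0 CM and 79.9, 78.5 and 76.6 CPM in TAM CM. Its log2 fold change was 8.79 ± 0.16 (edgeR adjusted p = 4.82e-42). The M0 CM mean rests on 11 counts in all, so this approximate SE is likely too small. Gdf15, a hormone that reduces appetite through the receptor GFRAL named above, was at 0.723, 0.398 and 0.964 CPM in M0 CM and 37.3, 36.6 and 38.9 CPM in TAM CM, 53.4-fold higher. Adm2, a peptide of the calcitonin family, had no count in M0 CM and 215 counts in TAM CM, at least 76.8-fold more. Stc2, a secreted glycoprotein, rose from 1.41 ± 0.147 to 50.8 ± 1.57 CPM. Each of these 4 genes was below 2 CPM in every M0 CM library.

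**Figure D1:**
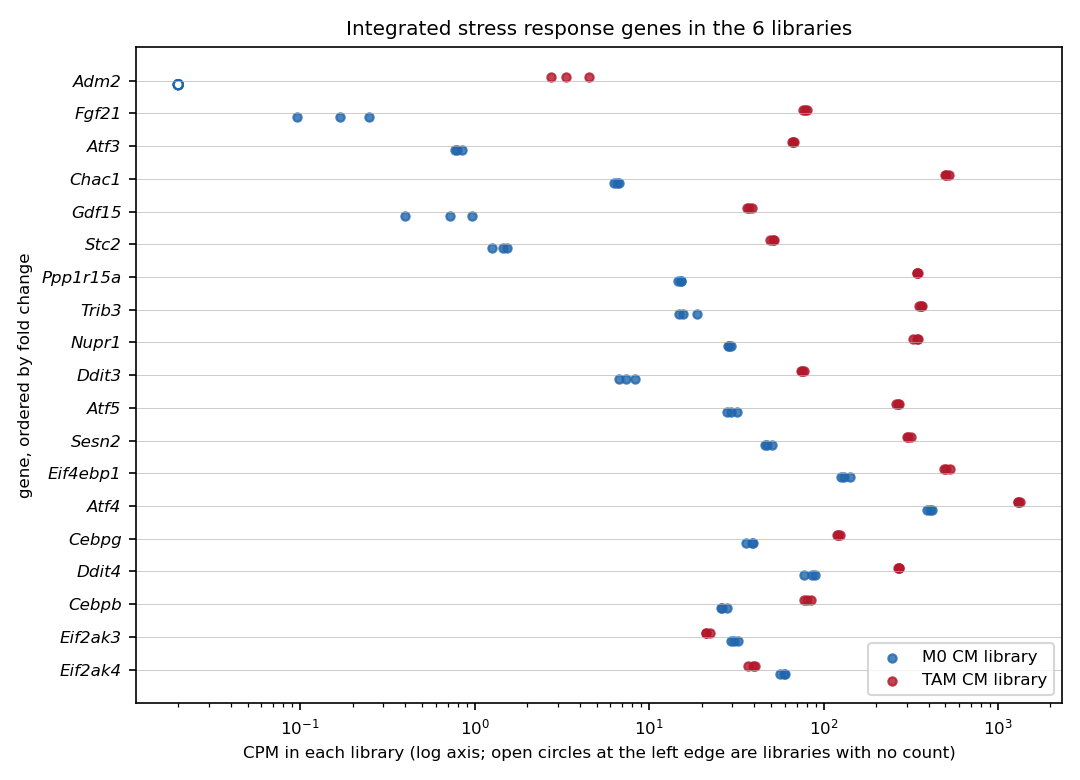
CPM (log axis) of the tested members of the integrated stress response list in each of the 3 M0 CM libraries (blue) and 3 TAM CM libraries (red), ordered by fold change. For 17 genes all red points lie to the right of all blue points, and for Eif2ak3 and Eif2ak4 all lie to the left.

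The promoters of these lists were then searched for the C/EBP-ATF element in the letters TGATGCAA, read on both strands (TTGCATCA on the other), in RefSeq windows of 250 bases before to 50 bases after the transcription start (GRCm38.p6). The search took in the integrated stress response, amino acid transporter, amino acid enzyme and tRNA synthetase lists. These lists hold the kinds of gene named above as ATF4 targets and were chosen with earlier results of these data known. A higher share of matches among them than among all genes is therefore no independent result. Of their 72 members 58 matched a promoter by symbol, and 13 of these (22.4%) held a match. Of all 27025 genes with a window, 279 (1.03%) held one, and of the 9976 tested genes with a window, 85 (0.852%) did. Of the 13 genes 12 were tested, and all 12 rose, with log2 fold changes from 0.83 to 8.79. Most members of the 4 lists rose whether or not they held a match. In the order named, 17 of 19, 13 of 14, 15 of 16 and 17 of 20 tested members were higher. Whether a match goes with a rise was not tested. Vldlr, the other gene, did not pass the low-count filter. A match is a description of these letters and not evidence of a binding site.

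Printed here are 8 of the stretches, chosen because they belong to the stress genes, transporter, enzymes and synthetase whose values are described in the text. Each runs 5′ to 3′ on the strand of its gene, with 50 bases on either side of the first match, and the capitals mark matches to the element. All 8 end before the transcription start.
Fgf21 (chr7:45615572-45615679, minus strand): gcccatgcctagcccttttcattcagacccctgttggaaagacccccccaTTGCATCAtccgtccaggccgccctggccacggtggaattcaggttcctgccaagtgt
Atf3 (chr1:191183386-191183493, minus strand): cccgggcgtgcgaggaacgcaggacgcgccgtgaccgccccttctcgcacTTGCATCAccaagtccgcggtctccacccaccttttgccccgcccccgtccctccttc
Chac1 (chr2:119350999-119351106, plus strand): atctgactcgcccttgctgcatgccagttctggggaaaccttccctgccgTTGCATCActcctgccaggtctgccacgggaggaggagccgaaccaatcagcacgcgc
Nupr1 (chr7:126625523-126625630, minus strand): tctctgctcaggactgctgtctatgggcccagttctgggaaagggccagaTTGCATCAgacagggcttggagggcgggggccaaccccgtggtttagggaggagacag
Slc7a11 (chr3:50443622-50443729, minus strand): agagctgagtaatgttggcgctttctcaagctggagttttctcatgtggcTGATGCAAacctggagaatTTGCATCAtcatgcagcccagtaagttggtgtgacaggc
Pycr1 (chr11:120643794-120643901, minus strand): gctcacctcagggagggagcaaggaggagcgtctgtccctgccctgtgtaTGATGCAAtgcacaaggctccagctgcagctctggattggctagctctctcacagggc
Got1 (chr19:43524650-43524757, minus strand): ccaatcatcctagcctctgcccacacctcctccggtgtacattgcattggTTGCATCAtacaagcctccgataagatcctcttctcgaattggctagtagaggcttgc
Aars (chr8:111033680-111033787, plus strand): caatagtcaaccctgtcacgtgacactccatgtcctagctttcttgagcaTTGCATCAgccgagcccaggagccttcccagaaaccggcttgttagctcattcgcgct
Slc7a11 held 2 matches, one in each orientation, and each of the others held 1. The first base of the first match lay 66 bases before the start in Slc7a11, 102 in Got1, 103 in Pycr1, 110 in Atf3 and Nupr1, 112 in Aars, 139 in Fgf21 and 193 in Chac1. Pycr1 and the first match of Slc7a11 read TGATGCAA on the gene's strand, and the other genes read TTGCATCA.

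**Figure D2:**
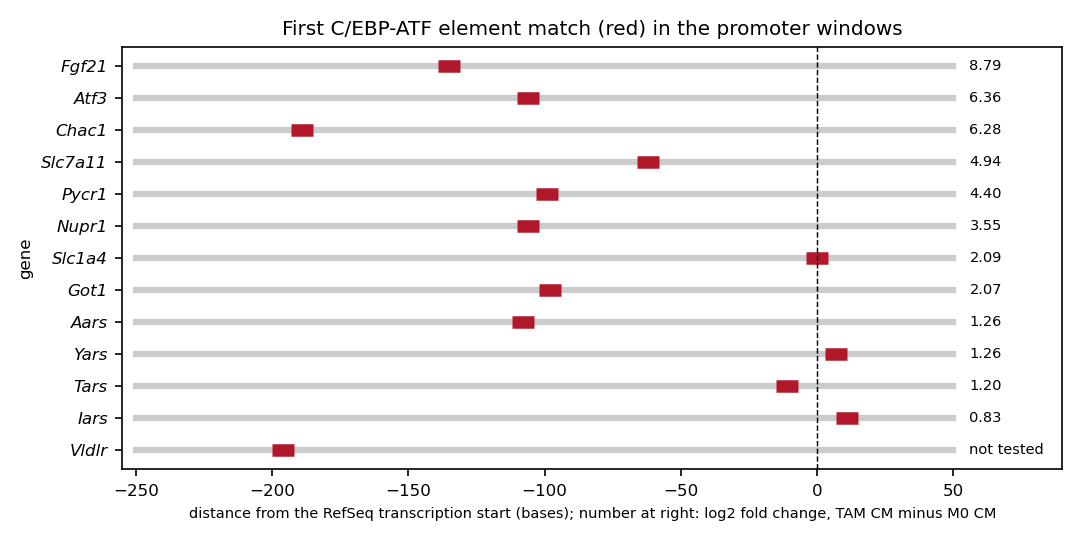
Position of the first match to the C/EBP-ATF element (red) in the window from 250 bases before to 50 bases after the RefSeq transcription start (dashed line) of the 13 genes with a match, with the log2 fold change of each gene at right. Of the matches, 10 lie wholly upstream of the start, and the 12 tested genes all have values above 0.

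Most of the listed amino acid transporters rose with the stress genes. Of 14 tested members 13 rose and none fell, with a median of 2.13. Slc7a11, the cystine importer xCT (chr3:49892526-50443614, minus strand), was at 24.4, 19.6 and 26.6 CPM in M0 CM and 744, 692 and 739.7 CPM in TAM CM, a log2 fold change of 4.94 ± 0.12 (edgeR adjusted p = 3.43e-10). Its partner Slc3a2, the heavy chain of several heteromeric transporters, was at 122, 119 and 129 CPM in M0 CM and 1027, 986 and 1003 CPM in TAM CM, 8.16-fold higher. Both chains of the cystine importer were thus higher in each TAM CM library than in any M0 CM library. Slc1a5, a glutamine transporter, rose from 42.3 ± 1.86 to 226 ± 5.22 CPM. Slc7a1, which imports arginine and lysine, rose from 137 ± 3.23 to 619 ± 21.4 CPM, and Slc1a4, an alanine and serine carrier whose promoter window also held the element, rose from 50.005 ± 0.694 to 213 ± 1.22 CPM. The member not called was Slc43a1, at 5.06 ± 0.370 CPM in M0 CM and 5.50 ± 0.696 CPM in TAM CM.

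The list does not hold every amino acid transporter, and some outside it fell. Slc6a6, a taurine transporter, fell from 386 ± 11.3 to 227 ± 9.85 CPM, and Slc36a4, a proline and tryptophan transporter, fell from 50.5 ± 2.15 to 33.5 ± 1.49 CPM. Slc7a7, a light chain that pairs with Slc3a2, fell from 5.94 ± 0.0603 to 3.77 ± 0.923 CPM, and Slc38a4 fell from 1.18 ± 0.275 to 0.0364 ± 0.0630 CPM. Those 4 genes were chosen with their values seen. Over all 207 tested solute carrier genes (Slc symbols) 95 rose and 67 fell, with a median of 0.13.

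Enzymes of serine, glycine, proline and asparagine synthesis and of mitochondrial one-carbon metabolism rose together, with 15 of 16 tested members higher, 1 lower and a median of 2.12. Asns, asparagine synthetase (chr6:7675169-7693254, minus strand), was at 85.6, 86.3 and 85.3 CPM in M0 CM and 536, 509 and 525 CPM in TAM CM, 6.10-fold higher (edgeR adjusted p = 1.73e-45). Along the serine branch, Phgdh, its first enzyme, rose from 376 ± 3.13 to 1278 ± 38.4 CPM, and Psph, its last, from 29.2 ± 1.53 to 356 ± 12.2 CPM. Mthfd2 and Aldh1l2, which carry one-carbon units in mitochondria, rose from 60.6 ± 4.82 to 427 ± 15.9 and from 43.0 ± 1.83 to 1291 ± 17.0 CPM. Cth, which makes cysteine from cystathionine, had the largest rise of the list, 57.2-fold, from 6.95 ± 0.518 to 399 ± 8.005 CPM. Pycr1 and Aldh18a1, enzymes of proline synthesis, rose from 4.22 ± 1.05 to 88.5 ± 1.04 and from 125 ± 5.92 to 455 ± 4.01 CPM. Got1, the cytosolic aspartate aminotransferase, rose from 57.1 ± 1.66 to 239 ± 3.68 CPM. The exception, Mthfd1, is the cytosolic trifunctional one-carbon enzyme and fell from 174 ± 4.14 to 143 ± 4.93 CPM.

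Charging enzymes and ribosome assembly factors also rose. Among the cytosolic aminoacyl-tRNA synthetases 17 of 20 rose and 2 fell (median 1.15). Rars, for arginine, was at 208, 204 and 202 CPM in M0 CM and 760.4, 754 and 756 CPM in TAM CM, 3.70-fold higher, and Gars, for glycine, and Sars, for serine, rose from 225 ± 5.58 to 729 ± 9.53 and from 245 ± 4.28 to 802 ± 16.5 CPM. Aars, for alanine, rose from 314 ± 11.7 to 754 ± 23.3 CPM. The exceptions were Qars, for glutamine, which fell from 148 ± 1.27 to 81.8 ± 2.81 CPM, and Vars, for valine, which fell from 394 ± 3.63 to 311 ± 4.78 CPM. Hars, for histidine, was not called, at 114 ± 1.75 CPM in M0 CM and 116 ± 2.16 CPM in TAM CM. Of the ribosome biogenesis factors 24 of 25 rose (median 0.90). Nop14, needed for the small subunit, rose from 69.7 ± 2.92 to 283 ± 3.78 CPM, Ncl, nucleolin, from 1366 ± 20.8 to 3377 ± 26.1 CPM, and Nop56, a core protein of box C/D snoRNPs, from 317 ± 7.13 to 808 ± 29.8 CPM. Bop1, a large subunit factor, was the member that fell, from 294 ± 6.25 to 244 ± 6.18 CPM. Nop56 lies across Idh3b on the other strand. The ribosomal proteins themselves moved less, with 17 of 29 higher, 6 lower and log2 fold changes between -0.49 and 0.49. Rpl8 rose from 2128 ± 43.3 to 2890.3 ± 95.7 CPM and Rpl4 fell from 1866 ± 21.2 to 1328 ± 51.5 CPM. Pseudogene copies can share reads with this family, so single values are uncertain.

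ER chaperones did not move as a block. On the unfolded protein response list 11 of 21 tested members rose and 9 fell. Hspa5, the main ER chaperone BiP, was at 833, 834 and 801 CPM in M0 CM and 2886, 2781 and 2879 CPM in TAM CM, 3.46-fold higher. Herpud1, an ER membrane protein of degradation, rose from 52.4 ± 2.59 to 286 ± 4.11 CPM, and Ern1, the sensor IRE1 alpha, rose from 102 ± 2.34 to 351 ± 4.79 CPM. Hyou1, a partner chaperone of BiP, rose from 178 ± 4.86 to 398 ± 11.96 CPM. The members that fell did so by small amounts. The disulfide isomerases Pdia6 and Pdia3 fell from 431 ± 5.22 to 352 ± 11.6 and from 802 ± 31.7 to 664 ± 4.57 CPM, the chaperone Hsp90b1 fell from 746 ± 19.3 to 622 ± 5.36 CPM, and the lowest log2 fold change on the list was -0.30, of Sdf2l1. Among heat shock proteins 7 of 13 rose and 4 fell. The mitochondrial chaperones Hspa9 and Hspd1 rose from 589 ± 2.46 to 2049 ± 44.1 and from 686 ± 8.31 to 1363 ± 23.6 CPM, and Bag3, a co-chaperone of selective autophagy, fell from 121 ± 1.02 to 68.7 ± 3.67 CPM.

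Oxidant defence, autophagy and lysosome genes rose in part. Of 20 tested NRF2 antioxidant genes 13 rose, 3 fell and 4 were not called (median 0.54); Slc7a11, described above, is one of them. Hmox1, which degrades heme (chr8:75093621-75100589, plus strand), was at 114, 102 and 107 CPM in M0 CM and 2038, 1642 and 1929 CPM in TAM CM, 17.4-fold higher (edgeR adjusted p = 5.35e-10). The TAM CM libraries spread from 1642 to 2038 CPM, and the lowest of them still lay far above every M0 CM library. The glutathione synthesis genes Gclm and Gclc rose from 86.6 ± 3.94 to 230.2 ± 14.4 and from 126 ± 6.02 to 317 ± 23.5 CPM, and Txnrd1, thioredoxin reductase, rose from 493 ± 14.5 to 992 ± 26.5 CPM. Nqo1, a quinone reductase often used as an NRF2 readout, was not called, at 382 ± 28.7 CPM in M0 CM and 324 ± 35.9 CPM in TAM CM (edgeR adjusted p = 0.0707); it was called lower under 5 of 13 alternative settings, among them without M0 replicate 2 (log2 fold change -0.30) or TAM replicate 1 (-0.31). Keap1, the adaptor that marks NRF2 for degradation, fell from 63.5 ± 3.63 to 36.2 ± 2.12 CPM.

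Sqstm1, the autophagy receptor p62 (chr11:50199366-50210827, minus strand), was at 351, 348 and 358 CPM in M0 CM and 5330.4, 4759.9 and 5105 CPM in TAM CM, 14.4-fold higher. Of 17 tested autophagy genes 14 rose and 1 fell (median 0.34), among them Calcoco1, a receptor for ER turnover, which rose from 61.6 ± 3.19 to 181 ± 6.70 CPM, and Gabarapl1, an ATG8 family member, which rose from 48.2 ± 1.89 to 124 ± 6.18 CPM. Most of these rises were small beside that of Sqstm1. On the lysosome list 14 of 19 rose and 3 fell (median 0.57). The protease gene Ctsl rose from 721 ± 5.41 to 2119.9 ± 79.3 CPM, and Lamp1, a lysosomal membrane protein, rose from 483 ± 8.63 to 758 ± 10.7 CPM. Tfeb, a transcription factor of lysosomal genes, went the other way and fell from 19.1 ± 0.566 to 3.57 ± 0.0891 CPM.

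Metal genes were mixed. Of 10 tested metallothionein and zinc genes 7 rose and 3 fell. Mt1, a metallothionein that shares sequence with Mt2, rose from 101 ± 9.10 to 267 ± 10.97 CPM. Slc30a1, a zinc exporter, rose from 6.80 ± 1.01 to 18.8 ± 0.916 CPM, and the importer Slc39a10 fell from 49.1 ± 3.08 to 26.1 ± 0.371 CPM. On the iron and ferroptosis list 6 of 12 rose and 6 fell. Tfrc, the transferrin receptor, rose from 159 ± 3.17 to 426 ± 1.97 CPM, and the ferritin heavy chain gene Fth1 rose from 2435 ± 112 to 4108 ± 143 CPM. Gpx4, which repairs lipid peroxides, rose from 298 ± 3.80 to 395 ± 7.55 CPM, while Acsl4, which makes the fatty acyl chains that peroxidise, fell from 111 ± 4.41 to 87.8 ± 3.69 CPM.

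Cholesterol synthesis and uptake had the lowest median of the 44 lists. All 23 tested members were lower in TAM CM, with a median of -2.10, where 34.9% of all tested genes were lower. Hmgcs1, which makes HMG-CoA (chr13:119690379-119708260, plus strand), was at 236, 232 and 227 CPM in M0 CM and 32.1, 33.4 and 32.0 CPM in TAM CM, a log2 fold change of -2.83 ± 0.04 (edgeR adjusted p = 1.16e-45). The M0 CM libraries and the TAM CM libraries lay close together within their group and far from the other group. Stard4, a cholesterol carrier, fell from 147 ± 2.51 to 22.6 ± 1.01 CPM, and Insig1, which retains the SREBP complex in the ER and is itself an SREBP target, fell from 147 ± 6.28 to 25.2 ± 1.59 CPM. Log2 fold changes on the list ran from -2.98 to -0.89.

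Fatty acid genes fell with them, 12 of 13 lower and 1 higher (median -1.20). Fads2 and Scd1, desaturases of polyunsaturated and saturated chains, fell from 195 ± 7.53 to 35.0 ± 2.08 and from 431 ± 18.8 to 173 ± 3.90 CPM. Elovl6, an elongase, fell from 287 ± 5.59 to 59.0 ± 2.22 CPM, and Srebf1, the transcription factor of the pathway, fell from 176 ± 4.85 to 51.4 ± 1.77 CPM. The exception was Me1, malic enzyme, a source of NADPH that the NRF2 list also holds, which rose from 98.1 ± 2.05 to 115 ± 2.03 CPM. Srebf1 lies across Rai1 on the other strand, and Rai1 rose from 98.9 ± 4.27 to 137 ± 6.61 CPM.

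Glycolysis and hypoxia genes were mostly lower, with 22 of 29 tested members fallen, 5 risen and a median of -0.66. Car9, a carbonic anhydrase widely used as a readout of hypoxia, was at 40.6, 45.2 and 36.4 CPM in M0 CM and 3.22, 3.70 and 4.23 CPM in TAM CM, 10.9-fold lower. Pfkm, a phosphofructokinase, fell from 127 ± 2.26 to 38.9 ± 0.377 CPM, Ldha, lactate dehydrogenase, from 2019 ± 57.7 to 1070.3 ± 31.5 CPM, and Tpi1, triosephosphate isomerase, from 1086 ± 29.7 to 624 ± 17.3 CPM. The rises were Ndrg1, a gene of growth arrest and hypoxia, at 108, 120.1 and 90.8 CPM in M0 CM and 844, 791 and 829.5 CPM in TAM CM, and Hk2, an inducible hexokinase, from 38.3 ± 5.71 to 139 ± 4.81 CPM, along with the glucose transporter gene Slc2a1, Pfkfb3 and Mxi1, with log2 fold changes of 0.51, 0.47 and 0.32. Other hypoxia genes, Bnip3, a mitophagy receptor, and Ankrd37, fell from 74.3 ± 10.2 to 24.2 ± 2.94 and from 3.81 ± 0.187 to 0.584 ± 0.373 CPM. Hk1, the constitutive hexokinase, fell from 194 ± 6.98 to 102 ± 5.24 CPM, so the 2 hexokinase genes moved in opposite directions. On the oxidative phosphorylation list 6 of 27 rose, 12 fell and 9 were not called. Cycs, cytochrome c, rose from 119 ± 2.47 to 223 ± 6.41 CPM, while Sdha of complex II fell from 228 ± 7.74 to 159 ± 0.554 CPM and Cox7a2 of complex IV fell from 70.6 ± 1.98 to 40.7 ± 1.04 CPM.

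Mitotic genes fell as a group. All 24 tested members were lower, with a median of -1.09. Mki67, a marker of cycling cells (chr7:135689784-135716361, minus strand), was at 861, 888 and 882 CPM in M0 CM and 244, 252 and 256 CPM in TAM CM, 3.50-fold lower (edgeR adjusted p = 1.59e-42). Ccnb2, cyclin B2, was at 128, 136 and 133 CPM in M0 CM and 22.3, 23.9 and 26.8 CPM in TAM CM, 5.44-fold lower. The 2 groups were far apart in each of these genes relative to their spread. Cenpa, the centromeric histone, fell from 167 ± 3.90 to 54.0 ± 1.23 CPM, and Kif20a, a kinesin of cytokinesis, fell from 186 ± 2.42 to 62.0 ± 3.08 CPM. Replication genes split: 16 of 25 were lower, 4 higher and 5 not called (median -0.22). Tk1, thymidine kinase, fell from 194 ± 3.65 to 48.4 ± 2.89 CPM, Lig1, DNA ligase I, from 263 ± 4.76 to 111 ± 5.59 CPM, and Mcm5, a helicase subunit, from 476 ± 7.38 to 236 ± 2.32 CPM. Pcna, the sliding clamp, was not called, at 338 ± 4.38 CPM in M0 CM and 345 ± 6.67 CPM in TAM CM.

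Cell cycle inhibitors and cyclins of G1 went both ways. Of 13 tested members 5 rose and 8 fell. Ccnd2, cyclin D2, rose from 93.5 ± 2.04 to 330.3 ± 8.61 CPM, and Cdkn1a, the inhibitor p21, rose from 111 ± 9.52 to 224 ± 3.83 CPM. The inhibitors Cdkn1b (p27), Cdkn2c (p18) and Cdkn2d (p19) fell from 127 ± 4.32 to 65.2 ± 0.647 CPM, from 126 ± 3.53 to 62.1 ± 0.993 and from 26.0 ± 0.349 to 4.48 ± 0.427 CPM. Of the 4 tested inhibitor genes 1 thus rose and 3 fell. On the p53 target list 12 of 18 rose and 5 fell (median 0.43). Gadd45a, a growth arrest gene that ATF4 also activates, was at 1.70, 1.89 and 1.30 CPM in M0 CM and 123, 139 and 129 CPM in TAM CM, 79.8-fold higher. Mdm2, the p53 ubiquitin ligase, and Plk2, a stress-induced kinase, rose from 215 ± 2.63 to 717 ± 13.5 and from 254.9 ± 8.04 to 1179.7 ± 25.3 CPM, and Eda2r from 36.9 ± 0.742 to 147 ± 3.37 CPM. Sesn1, the sestrin most tied to p53, fell from 38.8 ± 1.67 to 10.5 ± 0.00572 CPM, while its relative Sesn2, given above, rose.

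**Figure D3:**
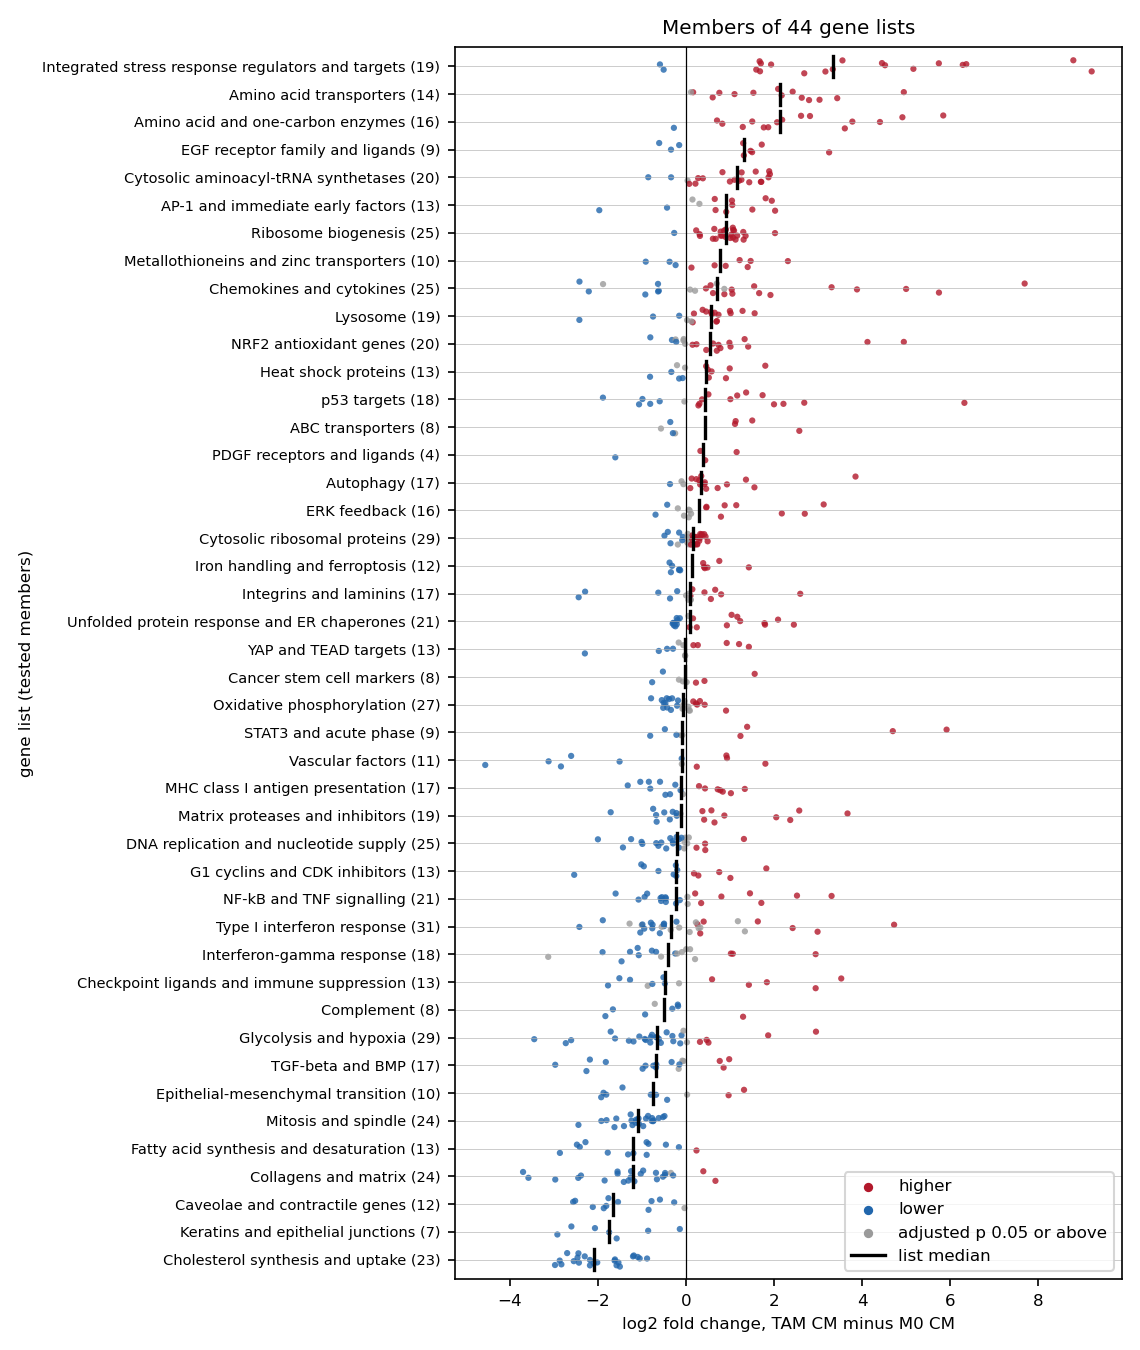
Log2 fold change of every tested member (points) of the 44 gene lists, ordered by list median (black bars), with red for genes that rose, blue for genes that fell and grey for genes not called. The integrated stress response (3.33), amino acid transporter (2.13) and amino acid enzyme (2.12) lists lie at the top, and cholesterol synthesis (-2.10) at the bottom.

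Interferon lists leaned to lower values. Of 31 tested type I interferon genes 7 rose, 13 fell and 11 were not called (median -0.35), and of 18 interferon-gamma genes 3 rose and 8 fell (median -0.41). These shares of lower genes, 41.9% and 44.4%, are not far from the 34.9% of all tested genes. Dhx58, an RNA sensor, fell from 18.4 ± 0.832 to 3.45 ± 0.470 CPM, and Ifit2, an antiviral protein, fell from 45.2 ± 3.03 to 23.4 ± 0.902 CPM. Gbp4, a guanylate-binding GTPase whose reads overlap those of Gbp9, fell from 49.0 ± 1.80 to 17.7 ± 0.676 CPM. Ifi44 rose from 0.0950 ± 0.0847 to 2.61 ± 0.144 CPM, and Isg15, a ubiquitin-like modifier, rose from 4.93 ± 0.185 to 15.3 ± 0.714 CPM. Irf1, a primary interferon-gamma target, was not called, at 71.9 ± 2.38 CPM in M0 CM and 72.0 ± 2.79 CPM in TAM CM.

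Antigen presentation genes were split. Of 17 tested MHC class I genes 7 rose and 9 fell. The heavy chain genes H2-K1 and H2-Q4 and the light chain gene B2m rose from 234 ± 8.21 to 401 ± 13.8 CPM, from 43.1 ± 1.31 to 108 ± 9.54 and from 615 ± 7.05 to 1094 ± 9.01 CPM, and so did Nlrc5, their transactivator, from 35.3 ± 1.601 to 71.4 ± 2.81 CPM. H2-T23, a non-classical heavy chain, fell from 15.9 ± 1.36 to 8.81 ± 0.231 CPM. Several genes that cut and load peptides fell, with Tapbp, tapasin, from 307 ± 15.6 to 123 ± 5.59 CPM, Tap2, a peptide transporter subunit, from 73.9 ± 3.84 to 42.0 ± 2.19 CPM, and Psmb9, an immunoproteasome subunit, from 21.9 ± 1.246 to 10.6 ± 0.975 CPM. The H2 genes have near copies that can share their reads, so single values are uncertain. On the NF-kB and TNF list 7 of 21 rose and 12 fell. Tnfaip2 rose from 25.2 ± 1.58 to 145 ± 3.39 CPM and Nfkbib, an NF-kB inhibitor, from 25.4 ± 0.946 to 69.5 ± 3.27 CPM. Nfkbia, the inhibitor that NF-kB itself induces, fell from 160.0 ± 9.54 to 116 ± 3.64 CPM, and Tnfrsf1b, a TNF receptor, fell from 118 ± 3.75 to 61.5 ± 2.86 CPM.

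Among the genes of chemokines and cytokines rises outnumbered falls, with 14 of 25 tested members risen and 6 fallen (median 0.70). Members such as Il23a, near 0 in the other media, passed the low-count filter through TAM CM and could not be called lower. Under the alternative settings the number risen ran from 10 to 16, so the balance of the list is uncertain. Il23a, the p19 subunit of interleukin-23 (chr10:128296139-128298752, minus strand), was at 0.0425, 0.0995 and 0 CPM in M0 CM and 9.72, 13.1 and 9.63 CPM in TAM CM. Its counts were 3 in all M0 CM libraries and 656 in the TAM CM libraries, a count ratio of 234 (exact 95% interval 79.8 to 1139). Csf1, a growth factor of macrophages, was at 1314, 1329 and 1315 CPM in M0 CM and 1944, 2111 and 1992 CPM in TAM CM, 1.53-fold higher, and Lif, a cytokine of the interleukin-6 family, rose from 17.1 ± 0.333 to 54.1 ± 0.919 CPM. Cxcl1, which attracts neutrophils, rose from 71.7 ± 1.42 to 270.4 ± 11.4 CPM. Cxcl12, which attracts cells with CXCR4, fell from 411 ± 24.9 to 76.5 ± 7.33 CPM, and Ccl7, a monocyte attractant, fell from 149 ± 0.944 to 95.9 ± 5.46 CPM. Il6, which passed the low-count filter through the other media, had 1 count in M0 CM and 2 in TAM CM, and no fold is given.

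Other inflammatory genes were higher at low levels. Il1rn, the interleukin-1 receptor antagonist, rose from 0.0605 ± 0.0527 to 2.16 ± 0.289 CPM, Cxcl2, a neutrophil attractant, from 0.123 ± 0.0716 to 1.91 ± 0.463 CPM, and Tnf, tumour necrosis factor, from 0.111 ± 0.0786 to 1.14 ± 0.462 CPM. The TAM CM libraries of Tnf stood apart from each other, at 1.53, 0.633 and 1.27 CPM. Among 9 tested STAT3 and acute phase genes 4 rose and 3 fell, not far from the shares of all tested genes. Their median was -0.09 and their lowest log2 fold change -0.81. The list holds 16 genes, of which Lifr, Saa1, Saa2, Hp, Orm1, Serpina3n and Lrg1 did not pass the low-count filter. Saa3, serum amyloid A3, rose from 0.440 ± 0.233 to 26.6 ± 0.854 CPM, and Lcn2, which binds bacterial iron carriers, rose from 0.704 ± 0.215 to 18.2 ± 2.51 CPM. Complement genes were lower in 6 of 8, while the regulator Cr1l rose from 59.8 ± 2.52 to 146 ± 7.06 CPM.

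Genes of immune suppression split as well, with 5 of 13 higher and 6 lower. These shares, 38.5% and 46.2%, are not far from the 35.1% and 34.9% of all tested genes. Ptgs2, cyclooxygenase 2 (chr1:150100031-150108227, plus strand), was at 49.0, 38.7 and 45.8 CPM in M0 CM and 541, 482 and 516 CPM in TAM CM, 11.5-fold higher (edgeR adjusted p = 7.94e-09). Cd274, which encodes the checkpoint ligand PD-L1, was at 0.638, 0.199 and 0.675 CPM in M0 CM and 3.82, 4.20 and 3.87 CPM in TAM CM. That gene was higher in every TAM CM library, though from a level under 1 CPM. Pvr, a ligand of TIGIT, rose from 22.8 ± 0.456 to 81.2 ± 4.06 CPM. Lgals9, a ligand of TIM-3, fell from 56.02 ± 2.09 to 16.4 ± 0.862 CPM, and Cd47, a signal against phagocytosis, fell from 158 ± 7.34 to 110.4 ± 1.98 CPM.

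Matrix genes fell. Of 24 tested collagen and matrix genes 21 were lower and 2 higher (median -1.21). Col12a1, a fibril-associated collagen, was at 79.5, 92.7 and 77.9 CPM in M0 CM and 6.004, 6.55 and 6.62 CPM in TAM CM, 13.0-fold lower. The collagen VI chains Col6a1 and Col6a3 fell from 286 ± 6.66 to 36.5 ± 0.448 and from 379 ± 16.8 to 31.9 ± 4.11 CPM, Col1a2, a chain of collagen I, from 1475 ± 53.7 to 554 ± 16.5 CPM, and Sparc, a matrix protein that binds collagen, from 865 ± 16.1 to 240.1 ± 8.38 CPM. Fn1, fibronectin, went against the list and rose from 2576 ± 102 to 4089 ± 95.6 CPM, and Col5a3 rose from 26.7 ± 0.342 to 35.1 ± 1.89 CPM. Integrin and laminin genes had 7 of 17 higher and 5 lower, near the shares of all tested genes. Itgb4, the hemidesmosome integrin, fell from 41.6 ± 1.70 to 8.53 ± 0.965 CPM, and Lamb1, a laminin chain, rose from 453 ± 7.33 to 716 ± 6.99 CPM. Matrix proteases and inhibitors were even, at 9 higher and 9 lower of 19. Adamts1 rose from 40.3 ± 2.97 to 166 ± 9.07 CPM and Plaur, the urokinase receptor, from 57.2 ± 3.75 to 295 ± 30.2 CPM, while Mmp9, a gelatinase, fell from 208 ± 4.35 to 147 ± 8.38 CPM. Mmp19 rose from 1.35 ± 0.351 to 17.2 ± 1.13 CPM and lies across Tmem198b on the other strand, which fell.

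Most tested epithelial and mesenchymal genes fell side by side. All 7 tested keratin and junction genes were lower (median -1.75), of 16 on the list. Krt5, Krt14, Krt7, Krt19, Cdh1, Epcam, Cldn4, Cldn7 and Ocln did not pass the low-count filter. Krt8, a keratin of simple epithelia, fell from 267 ± 8.57 to 63.6 ± 2.27 CPM, and Cldn1, a tight junction protein, fell from 5.58 ± 0.310 to 0.720 ± 0.210 CPM. Of 10 tested genes of epithelial-mesenchymal transition 7 fell and 2 rose (median -0.74). Vim, vimentin, was at 4548, 4748 and 4606 CPM in M0 CM and 1765, 1605 and 1741 CPM in TAM CM, 2.72-fold lower. Snai1, a repressor of E-cadherin, fell from 61.1 ± 3.14 to 16.1 ± 1.85 CPM, while its relatives in that role Snai2 and Zeb2 rose from 10.03 ± 0.853 to 24.9 ± 0.238 and from 44.1 ± 1.80 to 86.0 ± 2.66 CPM. Caveolae and contractile genes fell in 11 of 12 (median -1.65), with Cav1, caveolin 1, at 628, 668 and 624 CPM in M0 CM and 105, 113 and 107 CPM in TAM CM and Cnn2, a calponin, down from 358 ± 1.90 to 62.4 ± 1.82 CPM. TGF-beta and BMP genes were lower in 11 of 17 and higher in 3 (median -0.68). The BMP targets Id1, Id2 and Id3 fell from 286 ± 11.8 to 59.7 ± 1.22 CPM, from 113 ± 1.02 to 14.5 ± 0.608 and from 582 ± 0.786 to 128 ± 4.34 CPM, and Tgfbr2, the type II receptor, fell from 120.4 ± 1.94 to 60.8 ± 3.18 CPM. On the YAP and TEAD list 5 of 13 rose and 4 fell, near the shares of all tested genes. Ccn2, its best known target, fell from 4.13 ± 0.495 to 0.841 ± 0.195 CPM, and Crim1 rose from 44.8 ± 0.835 to 103 ± 1.63 CPM.

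Ligands of the EGF receptor family were higher. Of 9 tested genes of the EGF receptor family 6 rose and 3 fell (median 1.31). The ligands Areg, Nrg1 and Hbegf rose from 2.09 ± 0.360 to 19.8 ± 0.721 CPM, from 92.3 ± 2.98 to 261 ± 11.5 and from 11.3 ± 0.407 to 27.8 ± 1.30 CPM, and the other tested ligands, Ereg and Btc, rose as well, with log2 fold changes of 1.46 and 1.31. The receptor Egfr and the feedback inhibitor Errfi1 fell from 60.0 ± 1.04 to 47.3 ± 1.32 and from 126 ± 3.32 to 82.6 ± 2.91 CPM. Of the other receptors Erbb2 fell from 56.1 ± 1.17 to 50.4 ± 1.96 CPM and Erbb3, from a level under 1 CPM, rose from 0.248 ± 0.0456 to 0.829 ± 0.410 CPM. AP-1 and immediate early genes rose in 9 of 13 (median 0.91), with Fosl1, a FOS family member, at 42.1, 46.4 and 41.1 CPM in M0 CM and 171, 162 and 166 CPM in TAM CM and Ier2 up from 21.6 ± 1.46 to 87.6 ± 2.40 CPM. Fosl1 lies across Ccdc85b on the other strand, which fell. Among 16 genes of ERK feedback 8 rose and 2 fell. The phosphatase Dusp4 rose from 5.09 ± 1.15 to 44.2 ± 5.22 CPM and the transcription factor Etv5 from 14.1 ± 1.43 to 64.0 ± 4.42 CPM, whereas Dusp6, a phosphatase of ERK, was not called, at 67.6 ± 0.915 CPM in M0 CM and 70.5 ± 2.44 CPM in TAM CM.

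The last lists were small. Pdgfa, a PDGF ligand, rose from 23.7 ± 0.403 to 52.4 ± 1.41 CPM, and the receptor Pdgfrb fell from 40.7 ± 1.502 to 13.4 ± 0.910 CPM. Pdgfc passed the test (edgeR adjusted p = 0.0328) but not under 5 alternative settings, among them without M0 replicate 2, M0 replicate 3 or TAM replicate 1 (log2 fold changes of 0.27, 0.26 and 0.27). Of 11 tested vascular factors 4 rose (36.4%) and 6 fell (54.5%), against 35.1% and 34.9% of all tested genes. Vegfc rose from 12.5 ± 0.630 to 23.8 ± 1.03 CPM, while Vegfd, a ligand of the same receptors, fell from 27.9 ± 0.672 to 3.89 ± 0.212 CPM and Pgf, placental growth factor, fell from 3.23 ± 0.462 to 0.368 ± 0.0658 CPM. Of 8 tested ABC transporters 4 rose and 2 fell, the drug efflux genes Abcb1a and Abcb1b rising from 6.04 ± 0.540 to 36.0 ± 2.04 and from 139 ± 4.05 to 301 ± 7.03 CPM; this pair shares sequence. Abcc1, which exports glutathione conjugates, rose from 360.3 ± 9.57 to 786 ± 50.7 CPM. Cancer stem cell markers gave 3 higher and 2 lower of 8, not far from the shares of all tested genes. Klf4 rose from 39.3 ± 2.67 to 115 ± 2.93 CPM, Sox2 fell from 12.01 ± 1.07 to 7.02 ± 0.732 CPM, and Cd44 was not called, at 300.4 ± 4.17 CPM in M0 CM and 303 ± 14.7 CPM in TAM CM.

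The labelled cell type was checked against squamous markers. Of the 12 markers 4 were tested, namely Krt8, Krt18, Trp63 and Pkp1. Krt15, Krt6a, Krt17, Dsg3 and Epcam had no count in the 6 libraries, and Krt5, Krt14 and Cdh1 had 1 to 5 counts per group, so the defining markers of stratified squamous epithelium were absent or nearly so. The summed level of the list was 361 to 392 CPM in M0 CM and 90.1 to 101 CPM in TAM CM, almost wholly Krt8 and Krt18. Trp63, the p63 factor of basal squamous cells, was at 1.79 ± 0.141 CPM in M0 CM and 0.364 ± 0.237 CPM in TAM CM. Fibroblast markers, which include collagens named above, summed to 2505 to 2651 CPM in M0 CM and 1148 to 1203 CPM in TAM CM, with 6 of 9 above 1 CPM and Lum, Thy1 and Fap at 0 in both groups. Col1a1, Col1a2 and Col3a1 carried most of that sum. Dcn and Pdgfra of the same list went the other way in every library and rose from 2.82 ± 0.526 to 16.9 ± 1.38 and from 236 ± 4.73 to 319.7 ± 14.6 CPM. Macrophage markers summed to 28.7 to 30.5 CPM and 44.1 to 54.3 CPM. Most of that was Cd14, which rose from 17.3 ± 0.898 to 40.9 ± 3.80 CPM. The next most abundant, Mertk and Cd68, fell from 6.04 ± 0.664 to 2.56 ± 0.886 and from 3.89 ± 0.362 to 2.89 ± 0.827 CPM, with overlapping libraries for Cd68. The Cd68 call was lost without M0 replicate 2, M0 replicate 3 or TAM replicate 2 (log2 fold changes of -0.42, -0.38 and -0.21). C1qa and Marco had no count in either group and Adgre1 and Itgam at most 1 count. Melanocyte markers summed to 7.21 to 9.31 and 11.03 to 12.8 CPM, nearly all Mitf, and the other 5 lists stayed under 1.2 CPM. The part of the macrophage and fibroblast sums in the results was not tested.

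The same genes were read in the other 2 media. TAM CM libraries enter each comparison, so the comparisons are not independent. With edgeR's test 32.8% of all tested genes were higher and 34.4% lower in TAM CM than in M1 CM, and 34.3% and 34.1% than in M2 CM. Integrated stress response genes were higher in TAM CM than in M1 CM for 16 of 19 and than in M2 CM for 17. Means are given in the order M0, M1, M2 and TAM CM. Chac1 stood at 6.54, 78.7, 16.3 and 509 CPM, and Slc7a11 at 23.5, 278, 37.998 and 725 CPM. In both genes M1 CM was next highest and M2 CM followed. Fgf21 was at 0.172, 1.59, 0.164 and 78.3 CPM, with a log2 difference between TAM CM and M1 CM of 5.61 (edgeR adjusted p = 1.81e-40). Il23a, at 0.0473, 0.0791, 0.111 and 10.8 CPM, was near its M0 CM level in both other media.

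Some falls showed the same order, with TAM CM furthest from M0 CM and M1 CM next. Mki67 was at 877, 504, 773 and 251 CPM, and Hmgcs1 at 231, 144, 221 and 32.5 CPM. All 23 cholesterol genes were lower in TAM CM than in M1 CM, and all 23 were lower than in M2 CM. Col12a1, by contrast, was at 83.4, 7.56, 19.5 and 6.39 CPM, so TAM CM lay only a little below M1 CM (log2 difference -0.24, edgeR adjusted p = 0.047). Krt8, at 267, 129, 453 and 63.6 CPM, had its highest mean in M2 CM. Interferon genes parted the media the other way, since all 31 type I and all 18 interferon-gamma genes were lower in TAM CM than in M1 CM. Gbp4 was at 49.0, 2138, 42.0 and 17.7 CPM and Cd274 at 0.504, 51.4, 0.429 and 3.96 CPM.

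**Figure D4:**
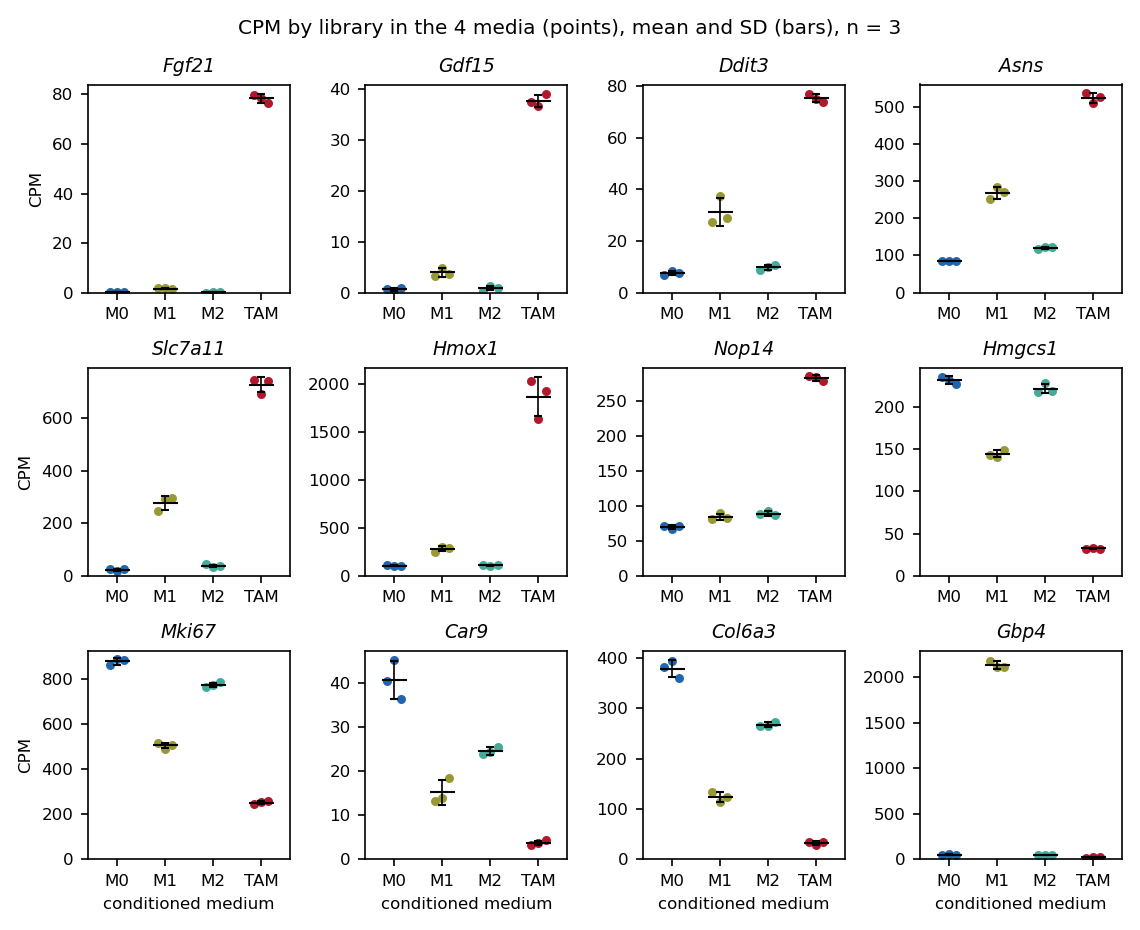
CPM of 12 genes in each library (points) of the 4 conditioned media, with mean and SD (bars, n = 3). Fgf21, Gdf15, Ddit3, Asns, Slc7a11, Hmox1 and Nop14 had their highest mean in TAM CM, Hmgcs1, Mki67, Car9 and Col6a3 their lowest, and Gbp4 was at 2138 CPM in M1 CM.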

How the data were processed

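Total RNA of SCC7 cells was taken with Trizol and made into Illumina mRNA libraries, per the labels' protocols. The authors deposited raw counts per gene for 12 libraries, 3 in each of 4 media, with no normalization. The submitters' processing notes name HISAT2 2.0 and mm10. The sources used here do not give which program counted the reads, on which gene annotation, or with which strand setting. The counts of the 6 libraries compared ranged from 18996937 to 22596630 per library. Symbols and coordinates came from the GENCODE M21 annotation, in which 55141 of the 55487 gene identifiers were found; of genes with the same symbol the lowest identifier kept it.

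The deposited counts were filtered with filterByExpr, which removed 0.0815% of counts, scaled by TMM and fitted with edgeR 4.0.16 (R 4.3.3, limma 3.58.1) in one model of all 12 libraries with a mean for each medium. The quasi-likelihood test with Benjamini-Hochberg adjustment over 14509 genes was used at 0.05. One M2 CM library, labelled with a melanoma line in 1 field, entered only the shared estimate of spread and the M2 CM values. CPM were counts over scaled library sizes, with no pseudocount. Bounds for groups without counts use a floor of 3 counts over the group, and ratios of few counts have exact 95% binomial intervals.

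The members and lists were chosen with earlier results of these data known. Genes were chosen for description as the 12 highest and 12 lowest log2 fold changes among called genes whose libraries did not overlap and whose higher mean reached 2 CPM (predicted genes and pseudogenes left out), the 4 smallest p of each list, and Fgf21, Gdf15, Adm2, Atf4 and Ddit3, in all 200. A further 101 were chosen with their values seen: members of lists whose counts are split, exceptions to a list, other family members, markers and overlapping neighbours. A few of these genes are not reported here. Promoter windows are from RefSeq (GRCm38.p6).

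Tested on simulated data for this comparison (13905 genes), the fit called 31, 44, 46 and 50 of 50 genes changed 1.25, 1.5, 2 and 4-fold, and 8 of 13705 unchanged genes. Only 200 genes were changed there, and the other media were drawn at M0 CM levels. In the data 70.0% of genes were called, so these rates do not carry over to the comparison itself. DESeq2 1.42.0, other scalings and filters, the 6 libraries alone, a replicate block and leaving out each library were the alternatives. Tables and plots used Python 3.11.15, pandas 2.3.3 and matplotlib 3.10.9.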

Additional observations from a re-analysis of the deposited data

How the results depend on the processing

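The comparison was repeated under 13 alternatives. Against 5089 genes higher and 5067 lower, the DESeq2 Wald test called 4881 and 4922, DESeq2 size factors in edgeR 5081 and 5075, and library sizes without scaling factors 4300 and 5891. The last moved the median log2 fold change to -0.0949 and the higher share of the calls from 50.1% to 42.2%. Without a low-count filter 5193 and 5195 genes were called, with a filter of 2 CPM in 3 libraries 4686 and 4635, and from the 6 libraries alone 5110 and 5057. Leaving out 1 library in turn gave 4875 to 4912 higher and 4901 to 4928 lower, and at 2-fold 1326 to 1382 and 1440 to 1490. Same-numbered libraries had correlations of 0.0114, 0.0164 and 0.00871 between their deviations from the group means. Libraries of different numbers had lower ones, from -0.0162 to 0.00425. All of these values are small, and counting noise can hide a shared batch. Whether the replicate numbers pair the libraries therefore stays unknown. The fit with the replicate block called 5091 higher and 5093 lower.

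Of the 3901 values of the 301 genes chosen for description under the alternatives, 3883 kept their side of the threshold. Those of them that were called also kept their direction, while the direction of values not called was not compared. Pdgfc missed it under 5 alternatives, and Pkp1 without M0 replicate 2 (-0.57) and without TAM replicate 1 (-0.58). Cd68 missed it without M0 replicate 2 (-0.42), M0 replicate 3 (-0.38) or TAM replicate 2 (-0.21). Nqo1 was called lower under 5, among them the replicate block (-0.24), and Macrod1 higher without TAM replicate 1. Cd44 and Irf1, near 0 otherwise, were called lower with library sizes alone (Cd44 at -0.0851 and Irf1 at -0.0937). The cause was not tested. Of 88 list counts 5 moved by more than 1.5 times: with library sizes alone the lower NRF2 genes went from 3 to 6, autophagy from 1 to 2, ERK feedback from 2 to 4 and stem cell markers from 2 to 4, and lower ABC transporters went from 2 to 1 without M0 replicate 3 or without TAM replicate 2. Genes under about 1 CPM in both groups rest on few counts and limit the precision of their fold changes.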

Other observations

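Gene families outside the lists were taken by their symbols, after the values of the lists had been seen, and are described without a test of the family. Of 15 tested tubulin genes, 2 pseudogenes among them, 14 fell and 1 rose in TAM CM by edgeR's quasi-likelihood test, with a median log2 fold change of -0.56, where 34.9% of all tested genes were lower. Tubb5, the most common beta-tubulin of dividing cells, fell from 2194 ± 12.7 to 1493 ± 11.03 CPM, and Tubb4b and Tuba1a fell from 429 ± 14.7 to 179.6 ± 3.47 and from 202 ± 11.5 to 82.3 ± 2.76 CPM. Tubb3, best known from neurons, was the one that rose, from 3.72 ± 0.0971 to 31.8 ± 3.11 CPM. In M1 CM Tubb3 stood at 29.1 CPM, close to TAM CM. Tubulin genes share sequence and are uncertain one by one. Of 12 histone genes of the Hist clusters 6 fell and none rose (median -0.86), nearly all at levels under 5 CPM.

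Each family count below is to be set beside the 35.1% of all tested genes that were higher and the 34.9% that were lower. Genes with Atp6 symbols, mostly subunits of the vacuolar proton pump, which acidifies lysosomes, were higher in 13 of 20 and lower in 2 (median 0.44). The accessory genes Atp6ap1 and Atp6ap2 and the pseudogene Atp6v0c-ps2 are among those that rose. Atp6v0b rose from 44.9 ± 1.55 to 91.5 ± 3.17 CPM and Atp6v1g1 from 77.2 ± 2.92 to 146 ± 5.05 CPM, while Atp6v0a4 fell from 3.66 ± 0.173 to 1.003 ± 0.213 CPM. Zinc finger genes with Zfp symbols were higher in 161 of 335 and lower in 64 (median 0.25). Library sizes without scaling factors moved the median of all tested genes to -0.0949, and the family medians were not computed under that setting. Among translation initiation genes with Eif symbols, which take in pseudogenes and eIF2 alpha kinases, 28 of 57 rose and 13 fell (median 0.03). Eif4ebp1, an inhibitor of cap-dependent translation, rose from 133 ± 7.82 to 506 ± 21.8 CPM, and Eif2b3, a subunit of the eIF2 exchange factor, rose from 35.0 ± 1.42 to 109 ± 2.82 CPM. Snhg1, a host gene of small nucleolar RNAs, rose from 51.9 ± 2.44 to 179 ± 1.69 CPM, and Snhg12 and Snhg15 rose from 19.9 ± 0.264 to 43.3 ± 2.04 and from 17.2 ± 0.935 to 41.8 ± 0.310 CPM. Snhg18, a host gene of the same kind, fell from 21.1 ± 0.717 to 9.38 ± 1.35 CPM. Of 12 tested Snhg genes and Gas5, 6 rose, 1 fell and 5 were not called.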
